A study of Mus musculus with 2 samples.

Results

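Trh, Cbln1 and Car10 were described in single cells of the newborn mouse hypothalamus, as 3 of the 24905 genes in the count table. Trh encodes the precursor of thyrotropin-releasing hormone. Cbln1 and Car10 had been picked as genes found with it in neurons, from measured levels in these same libraries, so their levels are given as a description. As a description with no bearing on that choice, among 9785 genes ranked by enrichment in cells with a Trh UMI (unique molecular identifier, 1 captured RNA molecule), Cbln1 was at rank 3 and Car10 at rank 916.

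Cells came from the hypothalamus of CD-1 pups, an outbred stock, at postnatal days 1 to 4, and were sorted by flow cytometry for viability and for the red protein tdTomato before Drop-seq, a droplet method that reads the 3′ ends of transcripts. Both groups carried Sim1-Cre, which puts Cre recombinase under the control of Sim1, and the tdTomato reporter Ai14. The control group had the genotype Sim1-Cre;tdTomato+/-, and the other, Sim1-Cre;tdTomato+/-;Sim1+/-, had in addition lost 1 Sim1 allele and is called Sim1 heterozygous here. Each group was 1 library made from 6 pooled pups, as its sample label gives it. The reporter stays on once switched on, so the sort takes cells of the Sim1 lineage whether or not they still express Sim1. With 1 library per genotype there was no replicate check, and each difference between genotypes is a difference between 2 libraries. Intervals are exact 95% intervals and cover counting error only. Those of summed UMIs take the UMIs of 1 cell as independent.

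Thyrotropin-releasing hormone is a tripeptide cut from a larger precursor. Neurons of the paraventricular nucleus release it to the pituitary, where it drives the secretion of thyroid-stimulating hormone, and thyroid hormone in turn lowers Trh transcription. Cbln1 is a secreted synapse organizer that bridges neurexins on the axon and delta-type glutamate receptors on the target cell, and Car10 is a carbonic anhydrase-related protein without the enzyme's activity that also binds neurexins. Otp is a homeodomain factor needed for neuroendocrine neurons, Fezf1 is a zinc-finger factor of the developing forebrain and hypothalamus, and Crh encodes corticotropin-releasing hormone, which drives the stress axis.

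In the mm10 annotation of GENCODE, Trh lies on the minus strand at chr6:92242061-92244650, Cbln1 on the minus strand at chr8:87468405-87472609, and Car10 on the plus strand at chr11:93098028-93601749. The long noncoding gene Gm2694 overlaps Cbln1 on the opposite strand, and the small nuclear RNA gene Gm24856 overlaps Car10 on the opposite strand. Whether the counting used strand is not stated in the labels, so reads from these pairs cannot be told apart.

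The 250 bases before the start site of Trh and of a Car10 transcript are shown because these genes were found in partly different cells of a lineage defined by Sim1. They were taken from RefSeq promoter windows of the build GRCm38.p6 and are written 5′ to 3′ on the strand of the gene. The first is chr6:92244651-92244900 on the minus strand and the second chr11:93099040-93099289 on the plus strand. Capitals mark matches to 5 motifs searched on both strands, and no matches overlap.
Trh: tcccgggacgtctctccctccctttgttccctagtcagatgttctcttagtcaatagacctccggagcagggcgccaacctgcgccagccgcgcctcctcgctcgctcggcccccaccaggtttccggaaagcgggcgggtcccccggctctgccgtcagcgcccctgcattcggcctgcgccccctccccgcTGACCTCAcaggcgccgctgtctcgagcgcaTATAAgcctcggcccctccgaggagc
Car10: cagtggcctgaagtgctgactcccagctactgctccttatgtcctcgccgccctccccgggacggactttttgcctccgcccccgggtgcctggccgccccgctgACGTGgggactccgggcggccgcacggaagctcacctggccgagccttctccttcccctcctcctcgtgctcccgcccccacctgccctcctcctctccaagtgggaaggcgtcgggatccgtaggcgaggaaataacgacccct

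The Trh window held TGACCTCA, a variant of the cAMP response element, at bases -57 to -50 counted from the start site, and the TATA box core TATAA at -26 to -22. TGACCTCA was present in 1.94% of 32851 windows of this length and TATAA in 22.8%. The Car10 window held ACGTG, the core bound by SIM1 with its ARNT partners, at -145 to -141, and 16.6% of windows did. No match to the full cAMP response element TGACGTCA (1.55% of windows), or to the homeodomain core TAATTA (4.84%), was found in either window. A second Car10 window, from another start site, held none of the 5 motifs, and Cbln1 had no entry. A match describes letters in a window and shows no binding.

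The tables held 2807 control barcodes with 6525080 UMIs and 2476 Sim1 heterozygous barcodes with 5397693 UMIs, and the libraries shared 0 barcode sequences. After removal of barcodes with under 300 genes, 2806 and 2454 cells remained, with medians of 1772.5 and 1583 UMIs. Clusters were neuron-like in all but 1 case, and neuron-like cells numbered 2751 (98%) and 2398 (97.7%). The other cells, 55 and 56, were astrocyte or radial glia-like from Fabp7, Slc1a3 and Aqp4. In neuron-like cells the summed level of the neuron markers was 23457 and 22898 CPM (counts per 1000000, the UMIs of a gene or list per 1000000 UMIs of all genes), and that of the astrocyte or radial glia markers was 263 and 341. Pituitary markers, mostly the growth hormone gene Gh, differed between the libraries, at 353 CPM in control and 6.01 in Sim1 heterozygous cells. Their part in the results was not tested. Sim1 itself stood at 114 CPM in control and 92.5 in Sim1 heterozygous neuron-like cells (log2 ratio -0.30, interval -0.47 to -0.13). Which bases the lost Sim1 allele lacks is not stated in the labels. Reads at the 3′ end of Sim1 may therefore not bear on the genotype.

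Trh was found in few cells, and a small number of them held most of it. In control, 138 of 2751 neuron-like cells (5.02%) had a Trh UMI. Of these cells, 71 had a single UMI, while 21 had 5 or more. The 21 cells with at least 5 UMIs, called Trh-rich below, held 306 of the 496 Trh UMIs (61.7%), the 10 highest cells held 48.2%, and the highest cell had 42. In the Sim1 heterozygous library, 109 of 2398 cells (4.55%) had a Trh UMI and 63 of them a single one. There the 17 Trh-rich cells held 155 of 299 Trh UMIs (51.8%), the 10 highest cells held 40.1%, and the highest cell had 35. The 5 highest control cells had 42, 40, 37, 29 and 25 Trh UMIs, and the 5 highest Sim1 heterozygous cells had 35, 18, 14, 10 and 9.

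Cbln1 was spread more thinly over more cells. It was found in 286 control cells (10.4%) and 191 Sim1 heterozygous cells (7.96%), with a single UMI in 68.2% and 77.5% of them and at most 7 UMIs in any cell of either library. Cells with 5 or more Cbln1 UMIs numbered 8 and 4, and they held 10.1% and 8.68% of its UMIs. Car10 was found in 849 control cells (30.9%) and 543 Sim1 heterozygous cells (22.6%). Cells with at least 5 Car10 UMIs numbered 67 and 46, and the highest values were 11 and 20 UMIs. The plot of UMIs per cell shows the long tail of Trh against the steep fall of Cbln1.

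**Figure D1:**
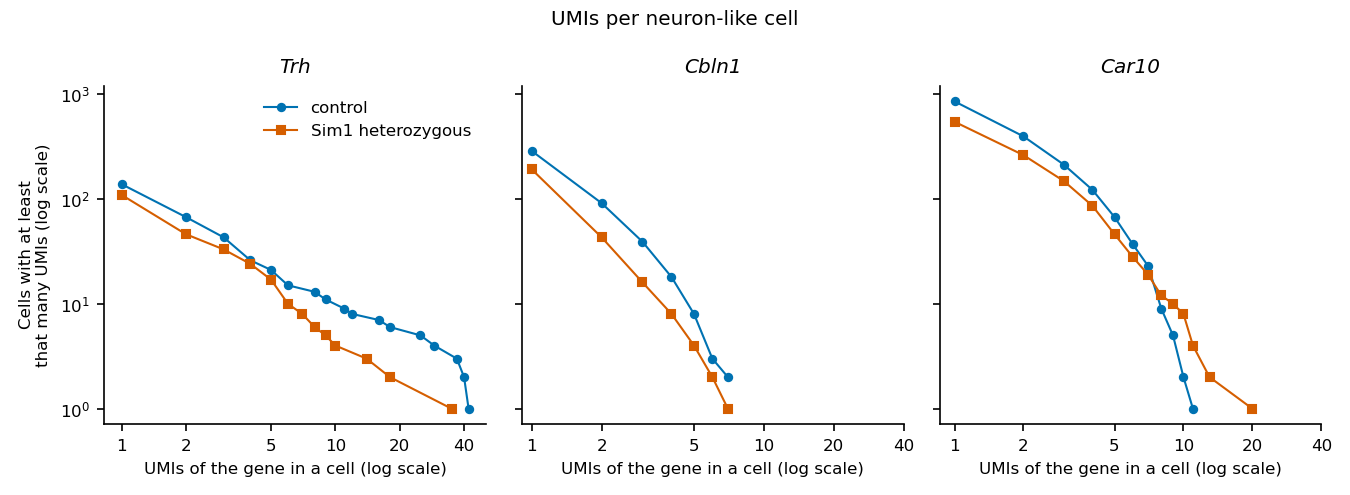
Number of neuron-like cells (y axis, log scale) with at least a given number of UMIs of Trh, Cbln1 or Car10 (x axis, log scale) in the control (circles) and Sim1 heterozygous (squares) libraries. Trh reached 42 and 35 UMIs in a cell, while Cbln1 ended at 7 in both libraries.

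Cells with a UMI of these genes were deeper than the rest, so shares were also taken with each cell thinned to 857 UMIs. At that depth Trh was found in 90 of 2595 control cells (3.47%, interval 2.8 to 4.25) and 46 of 1812 Sim1 heterozygous cells (2.54%, 1.86 to 3.37). Cbln1 was found in 4.78% and 4.03% of cells. Car10 was found in 17.1% (15.7 to 18.6) and 13.4%. Of the 3 genes, only Car10 had a log2 ratio of thinned shares whose interval lay below 0 (-0.36, -0.59 to -0.13), since those of Trh (-0.44, -1.0 to 0.08) and Cbln1 (-0.24, -0.68 to 0.18) included it. In the glia-like cells, which should lack these neuronal genes, a Trh UMI was found in 2 of 55 control cells (3.64%, median depth 1350 UMIs) and in 0 of 56 Sim1 heterozygous cells (median depth 903.5 UMIs). Cbln1 was found in 1 and 0 of these cells and Car10 in 0 and 2. After thinning, 1 of 55 control glia-like cells (1.82%, 0.046 to 9.72) and 0 of 29 Sim1 heterozygous ones (a count of 0 allows up to 10.3%) had a Trh UMI. So few glia-like cells did not resolve a background below the share of Trh or Cbln1 in neurons.

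Summed over neuron-like cells, all 3 genes were lower in the Sim1 heterozygous library, by less than 1.5-fold. Trh stood at 77.2 CPM in control (496 UMIs, interval 70.5 to 84.3) and 56.1 in Sim1 heterozygous cells (299 UMIs, 49.9 to 62.9), a log2 ratio of -0.46 (-0.67 to -0.25). Cbln1 stood at 69.5 and 49.7 CPM (447 and 265 UMIs), a log2 ratio of -0.48 (-0.71 to -0.26). Car10 stood at 268 and 221 CPM (1721 and 1176 UMIs), a log2 ratio of -0.28 (-0.39 to -0.17). None of the 3 passed 1.5-fold, where 9.14% of the 14443 genes with at least 30 UMIs were 1.5-fold lower and 7.98% higher, and the median log2 ratio of all genes was 0.04. The genes used to split the cells differed as well: Otp was at 353 and 227 CPM (log2 ratio -0.64, -0.74 to -0.54), Fezf1 at 35.3 and 19 (-0.89, -1.25 to -0.55), and Crh at 52.6 and 74.7 (0.51, 0.29 to 0.72). Fewer cells of a type and less RNA per cell cannot be told apart in these sums.

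Within cells that had an Otp UMI, the difference in Trh between libraries was smaller. Trh was at 195 CPM in 813 control cells and 176 in 431 Sim1 heterozygous cells (log2 ratio -0.14, -0.39 to 0.09). Without an Otp UMI it was at 15.4 and 17.6 (0.19, -0.31 to 0.70). Car10 in cells with an Otp UMI was at 366 and 372 CPM (0.02, -0.14 to 0.19), and Cbln1 was at 110.3 and 83.3 (-0.40, -0.75 to -0.07). Cbln1 was thus the only 1 of the 3 whose interval stayed below 0 inside the cells with an Otp UMI. With 12 neuron clusters given equal weight, the log2 ratio of Car10 between libraries was 0.07, the opposite sign, while Trh (-0.26) and Cbln1 (-0.50) stayed lower. Without the 5% of cells with the most UMIs, the Trh ratio was -0.74, and without the 1% of cells with the most Trh UMIs it was -0.22.

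Otp marked most of the Trh. In control, 96 of 813 cells with an Otp UMI (11.8%) and 42 of 1938 without (2.17%) had a Trh UMI. The cells with Otp held 431 of 496 Trh UMIs (86.9%), at 195 CPM against 15.4 without, a log2 ratio of 3.64 (3.28 to 4.06), rank 3 of 12546 genes. In the Sim1 heterozygous library, they held 228 of 299 Trh UMIs (76.3%), at 176 against 17.6 CPM, a log2 ratio of 3.31 (2.93 to 3.72), rank 4 of 11851. Cells with an Otp UMI were deeper (median 2182 against 1689 UMIs in control, 2387 against 1466 in Sim1 heterozygous). At 857 UMIs the Trh shares were 8.41% with and 2.18% without Otp in control, and 8.77% and 1.64% in Sim1 heterozygous cells.

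Cbln1 and Car10 were also higher in cells with an Otp UMI, by less. Cbln1 was at 110.3 against 48.2 CPM in control (log2 ratio 1.19, 0.92 to 1.47) and 83.3 against 38.9 in Sim1 heterozygous cells (1.10, 0.73 to 1.46). Car10 was at 366 against 216 in control (0.76, 0.62 to 0.89) and 372 against 172 in Sim1 heterozygous cells (1.11, 0.94 to 1.28). All 3 genes passed 1.5-fold in both libraries, beside 5.34% of all genes tested in control (6.85% were as far lower) and 7.18% in Sim1 heterozygous cells (10.1% lower). Without the 1% of cells richest in each gene, the Sim1 heterozygous value of Cbln1 was 0.41, under 1.5-fold, and Trh was at 2.25 in control and 2.35 in Sim1 heterozygous cells.

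The summed levels of all 3 genes were higher in cells with a Fezf1 UMI. Cells with a Fezf1 UMI numbered 136 in control and 66 in Sim1 heterozygous, and they were deeper than the rest (median 3121.5 and 2646.5 UMIs against 1752 and 1579). Cbln1 was at 253 against 55.6 CPM in control (log2 ratio 2.19, 1.87 to 2.50) and 197 against 42.5 in Sim1 heterozygous cells (2.24, 1.74 to 2.67). Car10 was at 550.1 against 246 in control (1.16, 0.96 to 1.35) and 676 against 198 in Sim1 heterozygous cells (1.78, 1.52 to 2.01). Trh was at 110.0 against 74.7 in control (0.58, 0.11 to 0.98) and 145 against 51.8 in Sim1 heterozygous cells (1.52, 0.94 to 1.99). Cbln1 and Car10 passed 1.5-fold in control, where 14.5% of genes did, and all 3 in the Sim1 heterozygous library, where 19.6% did. The control value of Trh turned to -0.30 when only cells with at least 2 Fezf1 UMIs were counted as positive. Without the 1% of cells richest in it, Trh was at 1.42 in control and 2.69 in Sim1 heterozygous cells, so the order of the 3 genes was not stable. At 857 UMIs, 2 of 59 control and 2 of 25 Sim1 heterozygous cells with Fezf1 had a Trh UMI, too few to resolve a difference. Cbln1 shares with and without Fezf1 were not resolved either, at 8.47% (2.81 to 18.7) and 4.69% in control. In Sim1 heterozygous cells they were 8% (0.984 to 26) and 3.97%. Car10 shares were apart in control, at 42.4% (29.6 to 55.9) and 16.5%, but not in Sim1 heterozygous cells, at 20% (6.83 to 40.7) and 13.3%.

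With Otp and Fezf1 combined, the summed level of control Trh was highest where Otp was present without Fezf1, but the share of cells with Trh was not. Cbln1 and Car10 were higher with both factors than with Otp only. In control, Trh was at 206 CPM (186 to 228) in 719 cells with Otp only, 132 (96.4 to 177) in 94 cells with both, 43.9 in 42 cells with Fezf1 only, and 14.6 in 1896 cells with neither. The cells with Otp only held 77.8% of control Trh UMIs and 66.9% of those in the Sim1 heterozygous library, where they were at 182 CPM and the cells with both at 140.3, with intervals that overlapped (158 to 209 and 93.2 to 203). In that library the 24 cells with Fezf1 only had 8 Trh UMIs, 164 CPM (70.8 to 323), an interval that overlapped both. Shares of cells with a Trh UMI ran the other way. They were 18.1% with both factors and 11% with Otp only in control, and 31% and 13.9% in Sim1 heterozygous cells. The cells with both were deeper (median 3369.5 against 2091 UMIs, and 4336 against 2279). Cells with at least 5 Trh UMIs numbered 2 with both and 17 with Otp only in control, and 1 and 13 in Sim1 heterozygous. Cbln1 was at 267 CPM in control cells with both factors and 81.7 with Otp only, and at 220.4 and 58.3 in Sim1 heterozygous cells. Car10 was at 564 and 329.5 in these control cells and at 706 and 311 in the Sim1 heterozygous ones. In cells with Fezf1 only, Cbln1 was at 211 (135 to 314) in control and 102 (33.3 to 239) in Sim1 heterozygous, and Car10 at 509 (387 to 658) and 553 (365 to 805), intervals that overlapped those of cells with both.

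Few cells had both Trh and Crh, each of which was found in few cells. In control, 1 of 83 cells with a Crh UMI had a Trh UMI, against 137 of 2668 without (5.13%), and in the Sim1 heterozygous library 2 of 66 did, against 107 of 2332 (4.59%). Cells with Crh held 1 of 496 and 2 of 299 Trh UMIs. The log2 ratio of Trh was -3.45 (-9.75 to -1.96) in control and -1.64 (-5.27 to -0.35) in Sim1 heterozygous cells. In these splits 11.8% and 11.5% of all genes were at least 1.5-fold lower. Without the 1% of cells with the most Trh UMIs the ratios were -1.87 and -0.30. After thinning, 0 of 48 control cells with Crh had a Trh UMI (0 to 7.4%), against 3.53% of those without. In Sim1 heterozygous cells 0 of 38 did (0 to 9.25%), against 2.59%. So few cells with Crh leave a difference in Trh shares at equal depth unresolved. The cells with a Crh UMI had more UMIs in all (median 2505 against 1769.5 in control, 1803.5 against 1603 in Sim1 heterozygous). Of the cells with a Crh UMI, 52 of 83 in control and 32 of 66 in Sim1 heterozygous also had Otp.

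In the same split the summed level of Cbln1 was lower than elsewhere in control, with an unstable value in Sim1 heterozygous cells. That of Car10 was higher, but its Sim1 heterozygous value was unstable as well and its shares of cells were not higher. Cbln1 was lower in control cells with a Crh UMI, at 29.6 against 71.3 CPM (log2 ratio -1.10, -2.49 to -0.28), and was at 43.3 against 49.9 in Sim1 heterozygous cells (-0.02, -1.54 to 0.86). That value rested on 7 UMIs in cells with Crh and went to -2.30 with positive cells at 2 Crh UMIs, -1.64 as a mean over cells, -1.53 without the 5% of cells with the most UMIs and -0.92 without the 1% richest in Cbln1. Car10 was higher, at 355 against 264 in control (0.44, 0.11 to 0.72) and 339.8 against 217 in Sim1 heterozygous cells (0.67, 0.23 to 1.04). The Sim1 heterozygous value of Car10 passed 1.5-fold, as did 28.8% of all genes, and went to -0.00 without the 5% of cells with the most UMIs. The direction also depended on which gene made the split, since Crh was lower in cells with a Car10 UMI (-1.17 in control, -2.57 in Sim1 heterozygous). The plot of levels with and without each factor gives these values with their intervals.

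**Figure D2:**
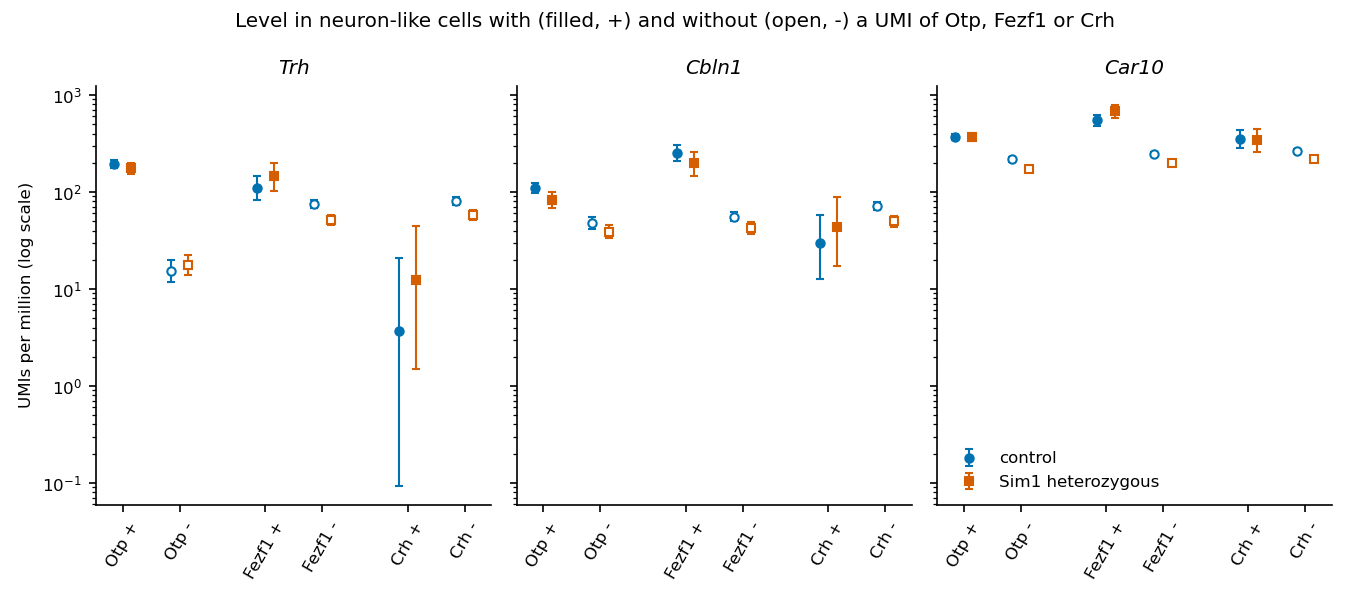
Level in CPM (log scale) of Trh, Cbln1 and Car10 in neuron-like cells with (filled) and without (open) a UMI of Otp, Fezf1 or Crh, in the control (circles) and Sim1 heterozygous (squares) libraries, with exact 95% Poisson intervals. Trh spans 195 against 15.4 CPM between control cells with and without Otp, and its lowest level, 3.7, is in control cells with Crh.

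Among the 3 genes themselves, Trh and Cbln1 were each higher where the other was found, in both libraries. Cbln1 was at 230.1 CPM in control cells with a Trh UMI and 59.5 in those without (log2 ratio 1.96, 1.60 to 2.29), and at 166 and 40.8 in Sim1 heterozygous cells (2.04, 1.59 to 2.44). Split the other way, Trh was at 319.8 against 36.3 in control cells with and without a Cbln1 UMI (3.14, 2.87 to 3.40) and at 186 against 35.6 in Sim1 heterozygous cells (2.39, 2.04 to 2.72). Cells with both numbered 47 of 2751 (1.71%) in control and 29 of 2398 (1.21%) in Sim1 heterozygous. They were deep, with median depths of 3278 and 6003 UMIs, and after thinning 15 of 2595 (0.578%) and 4 of 1812 (0.221%) remained, or 6 (0.231%) and 3 (0.166%) with another random seed. In the thinned control cells, 15 of 90 cells with Trh had Cbln1 (16.7%), or 6 of 79 with the other seed. In the thinned Sim1 heterozygous cells the shares were 8.7% with Trh (2.42 to 20.8) and 3.91% without. So few cells leave the co-detection of this pair at equal depth unresolved. In the Trh splits 17% of all control genes and 14.9% of all Sim1 heterozygous genes were at least 1.5-fold higher, and 8.23% and 8.21% in the Cbln1 splits, where 7.1% and 6.83% were as far lower.

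Trh and Car10 went opposite ways in the libraries. In control, Trh was at 46.7 CPM in 849 cells with a Car10 UMI and 98.7 in 1902 cells without, a log2 ratio of -1.07 (-1.39 to -0.78). In the Sim1 heterozygous library it was at 80.2 in 543 cells with and 42.8 in 1855 without, a log2 ratio of 0.91 (0.57 to 1.24). In these splits 5.74% of control genes were 1.5-fold lower and 5.24% of Sim1 heterozygous genes 1.5-fold higher (7.44% lower). The 5 control cells with the most Trh had 0 Car10 UMIs each, whereas the highest Sim1 heterozygous cell, with 35 Trh UMIs, had 2. Without the 1% of cells with the most Trh UMIs the ratios were -0.22 (-0.71 to 0.24) and 0.71 (0.15 to 1.25). Shares of cells at 857 UMIs showed no such contrast: 3.6% of control cells with Car10 and 3.44% without had a Trh UMI, and 2.48% and 2.55% in Sim1 heterozygous cells. Cells with both genes numbered 52 (1.89%) and 51 (2.13%) at full depth.

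Cbln1 and Car10 were associated in the same direction in both libraries. Cbln1 was at 91.4 against 54.1 CPM in control cells with and without a Car10 UMI (log2 ratio 0.76, 0.48 to 1.03) and at 70.7 against 38.2 in Sim1 heterozygous cells (0.89, 0.53 to 1.25), past 1.5-fold where 4.19% and 5.24% of all genes were. Cells with both numbered 136 (4.94%) and 81 (3.38%), and cells with all 3 genes numbered 18 and 23. At 857 UMIs, 5.63% of control cells with Car10 and 4.6% of those without had Cbln1, and 5.37% and 3.82% in the Sim1 heterozygous library, with intervals that overlapped in each library. In all, 1056 control cells (38.4%) and 705 Sim1 heterozygous cells (29.4%) had a UMI of at least 1 of the 3 genes.

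Cells with a Sim1 UMI had more Trh, at 141 against 56.4 CPM in control (log2 ratio 1.33, 1.06 to 1.58) and 103 against 41.2 in Sim1 heterozygous cells (1.32, 0.98 to 1.66), ranks 15 and 12. Cbln1 (-0.21 and -0.15) and Car10 (0.08 in both) had intervals that included 0. Trh passed 1.5-fold, as did 4.66% and 4.56% of all genes, while 4.27% and 4.21% were as far lower. At 857 UMIs the Trh share was 4.02% with and 3.42% without a Sim1 UMI in control, with overlapping intervals, and 1.38% and 2.64% in Sim1 heterozygous cells.

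Otp was found in most Trh-rich cells, 19 of 21 in control (90.5%) and 14 of 17 in Sim1 heterozygous (82.4%), against 27.4% and 15.9% of cells without Trh. Slc17a6, the vesicular glutamate transporter, was found in 15 of 21 (71.4%) and 15 of 17 (88.2%), against 60.1% and 63.9% of the shallower cells without Trh. As a level it was lower, at 447 against 616 CPM in control and 591 against 799 in Sim1 heterozygous cells. Slc32a1, the vesicular GABA transporter, was found in 1 and 0, against 1.3% and 0.917%. Gad2, another transmitter gene, was found in 1 of 21 and 5 of 17 (29.4%), against 3.48% and 4.67%. Crh and Sst were found in no Trh-rich cell, against 3.14% and 2.8% (Crh) and 5.7% and 5.24% (Sst) of cells without Trh. So few Trh-rich cells do not resolve shares this low. Cbln1 was found in 12 of 21 and 9 of 17, against 9.15% and 7.08%, and Car10 in 6 of 21 (28.6%) and 8 of 17 (47.1%), against 30.5% and 21.5%. Fezf1 was found in 2 and 1, against 4.44% and 2.05%.

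Ghrh and the Onecut factors marked some of these cells. Ghrh, which encodes growth hormone-releasing hormone, was found in 8 of 21 control and 5 of 17 Sim1 heterozygous Trh-rich cells, against 28 of 2613 (1.07%) and 10 of 2289 (0.437%) cells without Trh. The transcription factor gene Onecut2 was found in 12 of 21 and 7 of 17, against 13.5% and 11.9% of cells without Trh, and Onecut3 in 9 and 3, against 1.38% and 1.27%. Split by sets chosen after their values were seen, 7 control cells had a UMI of Onecut2, Onecut3 or Ghrh without Zic1 or Fezf1, 3 had Zic1 or Fezf1 only, 7 had both sets and 4 had neither. In the Sim1 heterozygous library these were 5, 5, 4 and 3 cells. The Trh-rich cells were deeper than cells without Trh (median 3654 against 1762 UMIs in control and 3250 against 1552 in Sim1 heterozygous), and the part of depth in these shares was not tested.

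When neuron-like cells were clustered without Trh, Cbln1 and Car10, Trh UMIs fell mostly into a few of the 14 clusters, called here by 2 leading genes other than Gh and the 3 members. The cluster called Nr2f2 and Aldoc was led by Gh, with Trh next, and Gh had 2178 UMIs in control and 0 in Sim1 heterozygous neuron-like cells. The name does not describe the Trh-rich cells, since Nr2f2 was found in 1 of 21 in control and 1 of 17 in Sim1 heterozygous. Its level in them was 36.2 and 26.3 CPM, against 70.1 and 50.1 in cells without Trh. In control cells with a Trh UMI the pituitary markers were at 212 CPM, against 362 in those without, and their part in the cluster values was not tested. In control, Trh was at 287 CPM (49 UMIs in 88 cells) in the cluster led by Crh and Sst, 179 (286 UMIs in 443 cells) in that led by Nr2f2 and Aldoc, 149 (105 UMIs in 294 cells) in that led by Zic4 and Zic1, and 60.5 in that led by Asb4 and Sox2ot. In the Sim1 heterozygous library, the Zic4 and Zic1 cluster was highest at 226 CPM (99 UMIs in 153 cells), followed by Nr2f2 and Aldoc (138), Crh and Sst (115) and Asb4 and Sox2ot (81.8). The 3 clusters highest over both libraries held 88.7% of control and 83.6% of Sim1 heterozygous Trh UMIs. Each other cluster was at or below 20.5 CPM, and no Trh UMI was found in the clusters led by Slc32a1 and Gad2 or by Pmch and Parpbp in either library.

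In the Crh and Sst cluster, few cells had both Trh and Crh, and few had Trh. Of its 88 control cells, 11 had a Trh UMI and 31 a Crh UMI, and 0 had both. Of its 102 Sim1 heterozygous cells, 10 had Trh, 42 had Crh, and 1 had both. Whether this overlap is smaller than that of unrelated genes was not tested. The cluster held 61.2% and 88.2% of all Crh UMIs.

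The difference in Trh between libraries was not the same in each cluster. It was lower in the Sim1 heterozygous library in the Crh and Sst cluster (log2 ratio -1.28, -2.13 to -0.55) and in the Nr2f2 and Aldoc cluster (-0.37, -0.69 to -0.07), and higher in the Zic4 and Zic1 cluster (0.60, 0.19 to 1.01). Of the 6 clusters with at least 10 Trh UMIs, 3 were lower and 3 higher. The numbers of Trh-rich cells were 3 and 0 in the Crh and Sst cluster, 13 and 8 in the Nr2f2 and Aldoc cluster, and 4 and 8 in the Zic4 and Zic1 cluster.

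Cbln1 and Car10 were both highest in the Zic4 and Zic1 cluster, which also held 50.7% and 60.4% of Fezf1 UMIs. Cbln1 was at 202 CPM in control and 164 in Sim1 heterozygous cells there, against 92.8 and 56.3 in the Nr2f2 and Aldoc cluster. In the Crh and Sst cluster, where control Trh was highest, Cbln1 had 3 UMIs (17.6 CPM) in control and 0 in Sim1 heterozygous cells. Cbln1 had 9 UMIs in 54 control cells of the cluster led by Kcnq1ot1 and Snhg14, a cluster of shallow cells with median depths of 845.5 and 700.5 UMIs. Car10 was at 608 and 638 in the Zic4 and Zic1 cluster and also high in the clusters led by Nfib and Neurod6 (355 and 375), Tcf7l2 and Lhx9 (351 and 389), Nr2f2 and Aldoc (337 and 308) and Asb4 and Sox2ot (301 and 253). Of these, only the Nfib and Neurod6 and the Tcf7l2 and Lhx9 clusters had Trh at or below 20.5 CPM. It was low in the clusters led by Nts and Rprm (21.3 and 32.6), Sall3 and Pde1c (34.6 and 68.8) and Avp and Oxt (46.5 and 0). Cbln1 was lower in the Sim1 heterozygous library in 8 of 11 clusters with at least 10 UMIs, and Car10 in 7 of 14.

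**Figure D3:**
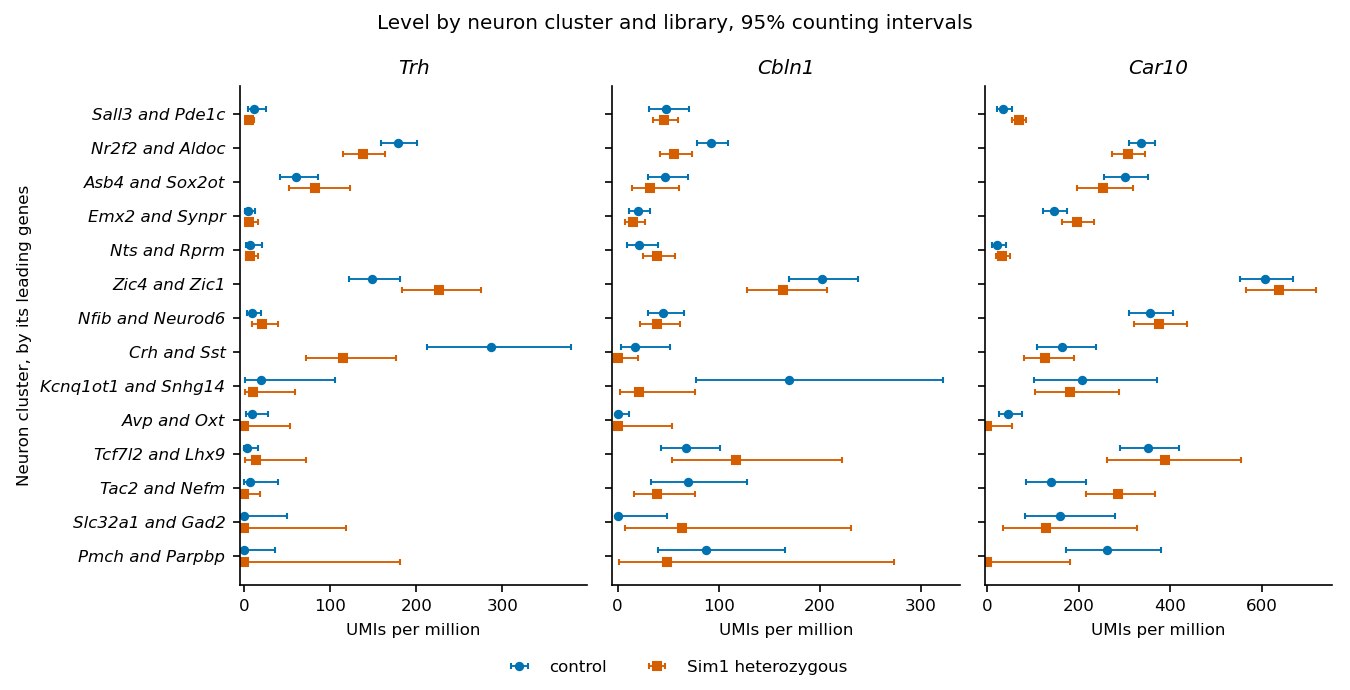
Level in CPM of Trh, Cbln1 and Car10 in 14 neuron clusters made without these genes and called by their leading genes, in the control (circles) and Sim1 heterozygous (squares) libraries, with exact 95% Poisson intervals. Trh is high in 4 clusters, Cbln1 and Car10 peak in the Zic4 and Zic1 cluster, and Car10 is present in several clusters where Trh is at or below 20.5.

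The genes most like each member were ranked by enrichment in cells with its UMI, using the lower bound of the interval in the library where that bound was lower. For Trh the 10 highest included Sncg, Mab21l2, Cbln1, Six3, Onecut3, Asic4, Sstr2, Zic1 and Otp. Sncg, gamma-synuclein, was at 143 against 23.3 CPM in control (log2 ratio 2.63, 2.13 to 3.08) and 100.2 against 12.1 in Sim1 heterozygous cells (3.06, 2.42 to 3.66). Onecut3 had a log2 ratio of 3.64 in control and 2.51 in Sim1 heterozygous cells, and Sstr2, a somatostatin receptor, 1.83 and 2.23. Zic1, a zinc-finger factor, had 1.24 (0.94 to 1.51) in control and 2.34 (2.03 to 2.63) in Sim1 heterozygous cells, intervals that did not overlap. Fezf1 was at rank 12 and Sim1 at rank 1179.

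For Cbln1 the 10 highest included Trh, Mab21l2, Sncg, Fezf1, Asic4, Ebf1, Zic1, Zic4 and Pmch, and Car10 was at rank 15. Mab21l2 was at 75.6 against 6.18 CPM in control (log2 ratio 3.59, 3.0 to 4.25) and 48.2 against 7.39 in Sim1 heterozygous cells (2.71, 1.98 to 3.43). Pmch, the melanin-concentrating hormone precursor, was at 3773 against 950.0 in control and 653 against 338 in Sim1 heterozygous cells, and 7 of 26 control cells in the Pmch and Parpbp cluster had a Cbln1 UMI. For Car10 the 10 highest included Fezf1, Nr2f2, Calb2, Aldoc, Prss12, Chrm2, Epha5, Npas3 and Zic1. Fezf1 led with log2 ratios of 2.06 (1.64 to 2.54) and 1.88 (1.28 to 2.55), Calb2, calretinin, had 1.03 and 1.02, and Trh was at rank 8745 of 9785.

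Sncg, Mab21l2, Asic4 and Zic1 were in the top 10 of both Trh and Cbln1. Zic1 was also in that of Car10, and Fezf1 was in those of Cbln1 and Car10. When cells needed 2 UMIs of the member to count, 7 of the 10 stayed for Trh, 8 for Cbln1 and 7 for Car10.

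**Figure D4:**
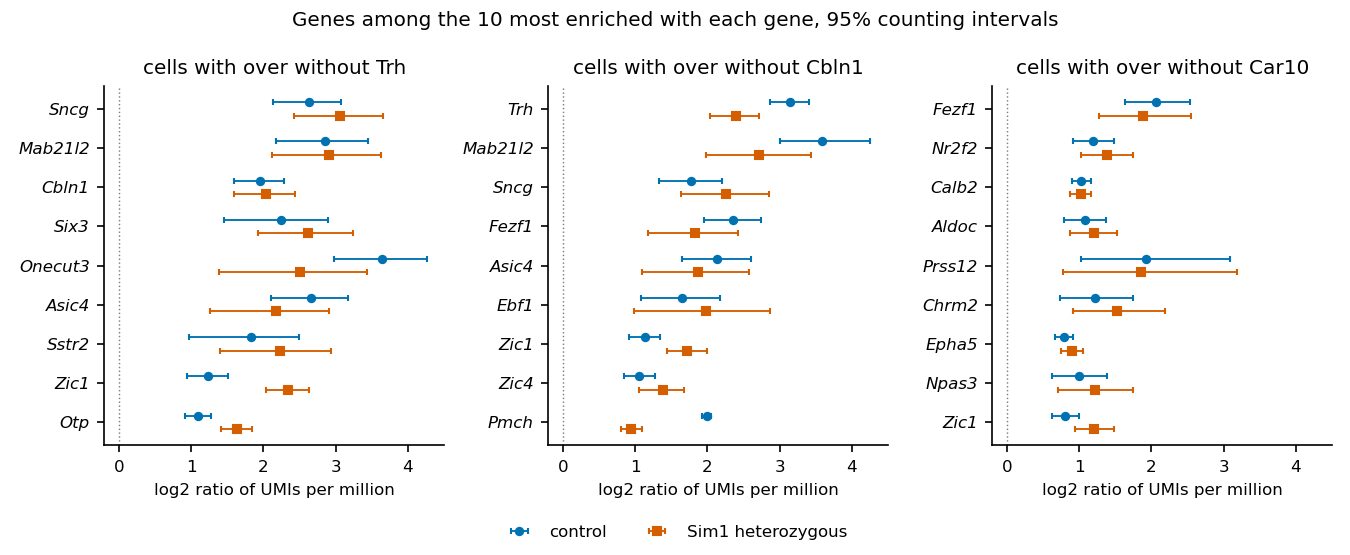
Log2 ratio of CPM in neuron-like cells with over without a UMI of Trh, Cbln1 or Car10 for genes among the 10 ranked highest for each, in the control (circles) and Sim1 heterozygous (squares) libraries, with exact 95% counting intervals. The ratios of the Trh and Cbln1 lists reach 3.64 and 3.59, while those of Car10 end at 2.06.

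Among genes for making, breaking down or sensing thyrotropin-releasing hormone, Trhde was higher in cells with Trh in both libraries. Of 9 tested, 6 were at least 1.5-fold higher and 0 lower in control cells with a Trh UMI, and 3 higher and 2 lower in Sim1 heterozygous cells, with median log2 ratios of 0.75 and 0.27 beside 0.09 and 0.07 over all genes, of which 17% and 14.9% were higher and 10.6% and 11.1% lower. Intervals included 0 for Qpctl and Trhr among the 6 in control, and for all but Trhde among the 3 in Sim1 heterozygous cells. The difference between the libraries was not tested. Trhde, the ectoenzyme that degrades the hormone, was at 39.7 against 20 CPM in control (log2 ratio 1.07, 0.11 to 1.77) and 79.1 against 17.4 in Sim1 heterozygous cells (2.22, 1.54 to 2.80). Pam, which amidates peptide hormones, had 0.84 (0.36 to 1.23) in control and -0.07 (-0.66 to 0.39) in Sim1 heterozygous cells. The convertase gene Pcsk2 had 0.65 (0.29 to 0.96) and 0.27 (-0.08 to 0.57), and Pcsk1 -0.31 and -0.68 with intervals that included 0.

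Receptors and cofactors of thyroid hormone feedback were close to even. Of 8 tested in control and 7 in Sim1 heterozygous cells, 1 in each was 1.5-fold higher in cells with Trh. Over all genes in this split, 17% and 14.9% were higher and 10.6% and 11.1% lower. Thra, a thyroid hormone receptor, was slightly lower, with log2 ratios of -0.36 (-0.60 to -0.13) and -0.29 (-0.51 to -0.10). Crym, with 0 UMIs in control cells with Trh, was counted in neither direction, and the median log2 ratio was 0.09 in control, or 0.30 with Crym at its bound, and -0.08 in Sim1 heterozygous cells. Among 9 and 8 genes for signals that reach Trh neurons, 4 and 1 were higher and 1 and 2 lower, beside the same shares of all genes. Npy5r was at 0 UMIs in control cells with Trh and counted in neither direction. Nr3c1, the glucocorticoid receptor, had 0.92 (0.13 to 1.52) and 1.03 (0.33 to 1.59). Their median was 0.41 in control, or 0.54 with Npy5r at its bound, and -0.37 in Sim1 heterozygous cells. Mc4r, the melanocortin receptor, had only 3 UMIs in control cells with Trh.

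More of the other neuropeptides were lower than higher in cells with Trh. Of 21 tested in control, 4 were higher and 10 lower, and of 19 in Sim1 heterozygous cells 3 were higher and 12 lower, with Oxt and Nmu at 0 UMIs there. Over all genes, 17% were higher and 10.6% lower in control, and 14.9% and 11.1% in Sim1 heterozygous cells. The median log2 ratio was -0.46 in control and -1.82 in Sim1 heterozygous cells, or -0.98 with those genes at their bound. Avp, vasopressin, had -2.75 (-2.91 to -2.59) and -4.99 (-5.83 to -4.41), and Pmch -5.50 and -3.95. Shares of cells with an Avp UMI, at full depth, showed no such drop. In control they were 33.3% of Trh-rich cells, 20.5% of cells with 1 to 4 Trh UMIs and 22.6% of cells without Trh. In Sim1 heterozygous cells they were 11.8%, 15.2% and 11.1%. Adcyap1 was among the neuropeptides higher in both libraries, with 0.96 and 0.66. Tac1, the substance P precursor, had 0.48 (0.14 to 0.78) in control, under 1.5-fold, and 1.44 (1.18 to 1.68) in Sim1 heterozygous cells. Ghrh was at 138 against 11.4 CPM in control (3.60, 3.04 to 4.13). It had 23 UMIs in all in Sim1 heterozygous neuron-like cells, against 121 in control.

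Among cerebellins and their receptors, Cbln2 was higher in cells with Trh in both libraries, while Nrxn2 and Nrxn3 had intervals that included 0. Of 8 tested, 4 were at least 1.5-fold higher in control and 3 in Sim1 heterozygous cells with Trh, and 0 lower, with medians of 0.56 and 0.19, where 17% and 14.9% of all genes were higher and 10.6% and 11.1% lower. Cbln2 was at 381 against 187 CPM (log2 ratio 1.03, 0.76 to 1.28) and 396 against 228 (0.80, 0.54 to 1.04). The log2 ratios were 0.14 and -0.02 for Nrxn2 and 0.17 and -0.38 for Nrxn3. In cells with a Cbln1 UMI, 0 of 7 other genes of this list were 1.5-fold higher in control and 1 in Sim1 heterozygous cells, with medians of 0.34 and 0.11 beside 0.04 and 0.05 over all genes. Over all genes in the Cbln1 split, 8.23% and 8.21% were higher. In cells with a Car10 UMI, where 4.19% and 5.24% of all genes were higher and 5.74% and 7.44% lower, the list had medians of 0.36 and 0.40. The median over all genes was -0.01 in each. Of the list, 3 of 8 in control and 2 of 8 in Sim1 heterozygous were higher in cells with Car10. Nrxn3 was higher in both libraries (0.55, 0.38 to 0.72, and 0.63, 0.40 to 0.86). Of 17 and 16 other neurexin partners, 2 and 3 were higher and 0 and 1 lower in cells with Car10 (medians 0.02 and -0.01), and 1 and 0 were higher and 2 and 3 lower in cells with Trh (0.13 and 0.04). Among them, Lrrtm1 (0.58 and 0.75) and Lrrtm3 (0.77 and 0.61), which are postsynaptic adhesion proteins, were higher and Adgrl2, a latrophilin, was at -0.56 and -1.10. Of 2 other carbonic anhydrase genes tested, 0 passed 1.5-fold in cells with Car10, and Car11, which like Car10 lacks the enzyme activity, had 0.05 and -0.05. In cells with Trh, 0 of 3 passed in control and 1 of 3 in Sim1 heterozygous.

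Regional transcription factors were both higher and lower. In cells with Trh, 10 of 34 tested were higher and 12 lower in control, and 9 of 33 higher and 10 lower in Sim1 heterozygous cells, with genes at 0 UMIs taken at their bound (medians -0.05 and 0.08), beside 17% higher and 10.6% lower of all control genes and 14.9% and 11.1% of Sim1 heterozygous ones. Foxb1 (-2.77 and -2.08) and Lhx1 (-2.51 and -1.98), factors of mammillary neurons, were lower. They were also lower in cells with Car10, at -2.22 and -1.37 for Foxb1 and -1.63 and -1.32 for Lhx1. Onecut2 was 1.61 in control cells with Trh and 0.10 in Sim1 heterozygous ones, and -1.08 and -1.31 in cells with Car10. In cells with Car10, 7 of 34 were higher and 6 lower in control, and 15 of 33 higher and 6 lower in Sim1 heterozygous cells (medians 0.10 and 0.49). Over all genes in the Car10 split, 4.19% were higher and 5.74% lower in control, and 5.24% and 7.44% in Sim1 heterozygous cells. Of the transmitter genes tested in cells with Trh, 1 of 5 was higher and 2 lower in control (median -0.12). In Sim1 heterozygous cells 0 of 4 were higher and 1 lower with Slc32a1, at 0 UMIs, at its bound (median 0.01, or -0.43 as fitted).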

How the data were processed

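Drop-seq counts of 2 libraries were used, 1 per genotype. The authors deposited whole-number UMI counts, with genes in rows and cell barcodes in columns, as a merged table and 1 table per library, and all 5283 cells were identical in both. Per the submitters' processing notes, bcl2fastq, Picard, STAR 2.6.0b and Seurat 3 were used with mm10. The annotation and the counter were not given in the sources used here.

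Barcodes with under 300 genes were left out (1 control, 22 Sim1 heterozygous). Cells were clustered together (2000 variable genes without Trh, Cbln1 and Car10, 30 principal components, 20 neighbours, Leiden resolution 1; scanpy 1.11.5, leidenalg 0.10.2, Python 3.11.15). No doublet caller was run, so doublets must be taken as present, and 1 alternative leaves out the 5% of cells with the most UMIs. Levels are summed UMIs per 1000000 (CPM), with exact Poisson intervals. Log2 ratios use a pseudocount of 1 UMI and conditional exact binomial intervals, for genes with at least 30 UMIs in the libraries compared. Shares have Clopper-Pearson intervals. A count of 0 was given a bound of 3 UMIs or cells. Reads of 1 cell are not independent, so intervals of summed UMIs are too narrow for a gene held by few cells, such as Trh. No interval covers variation between animals or preparations, and no test was possible.

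Named genes are the 3 members, Otp, Fezf1, Crh and Sim1, the 10 genes ranked highest for each member (mitochondrial, ribosomal protein, haemoglobin, sex-linked and clone-named genes left out), and members of 9 gene lists. Members and lists were chosen with earlier results of these data known. The ratio and its interval were tested before use on simulated sums of independent UMIs, the same model that the interval assumes. That test could not check the intervals of genes whose UMIs lie in few cells, such as Trh. Alternatives covered filters, scaling, pseudocount, thinning and clustering. Some genes that the rule would name are not reported here.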

Additional observations from a re-analysis of the deposited data

Results flagged for a closer look

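The contrast of Trh between cells with and without a Car10 UMI had opposite signs in the libraries, -1.07 in control and 0.91 in Sim1 heterozygous cells, each with an interval that left out 0. The difference between the libraries was not tested. Pmch, another gene held by few cells, also had opposite signs in this split, at 1.53 in control and -3.09 in Sim1 heterozygous cells.

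The ratio of Trh between libraries had opposite signs across neuron clusters, which was not tested either. It was 0.60 in the cluster led by Zic4 and Zic1, -0.37 in that led by Nr2f2 and Aldoc and -1.28 in that led by Crh and Sst. In these clusters control Trh UMIs numbered 105, 286 and 49, and Sim1 heterozygous ones 99, 130 and 21.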

How the results depend on the processing

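No paired analysis was possible because each genotype is 1 library. Under other settings, 113 values stayed within the counting interval of the reported value or, for counts, within 1.5 times it, 40 lay outside, and 3 reversed a direction whose interval had left out 0. The causes were not tested, except that a lower minimum adds genes and leaving out the cells richest in a gene removes its UMIs by construction.

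Reversed were Car10 between libraries with clusters weighted equally (0.07), Trh in control cells with Fezf1 at 2 UMIs (-0.30), and Car10 in Sim1 heterozygous cells with Crh without the 5% deepest cells (-0.00). Between libraries Trh was -0.74 without the 5% deepest cells and -0.22 without the 1% of cells richest in it. Genes at least 1.5-fold higher and lower, 1152 and 1320, were 539 and 606 with at least 100 UMIs and 4245 and 4223 with at least 1.

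Without the 1% of cells richest in the gene, the Otp contrast was 2.25 (control) and 2.35 (Sim1 heterozygous) for Trh, and in Sim1 heterozygous cells 0.41 for Cbln1 and 0.91 for Car10. The Fezf1 contrast was 1.42 and 2.69 for Trh, and 1.60 for Cbln1 and 1.48 for Car10 in Sim1 heterozygous cells. The Crh contrast was -1.87 and -0.30 for Trh and 0.10 for Car10 in Sim1 heterozygous cells. As a mean over cells, the Otp contrast was 3.03 and 2.55 for Trh, 0.97 and 0.88 for Car10, and 0.69 for Cbln1 in Sim1 heterozygous cells, where the Crh contrast was -1.64 for Cbln1 and 0.13 for Car10. With positive cells at 2 UMIs, Sim1 heterozygous contrasts were 1.33 (Car10, Otp), 2.0 (Trh, Fezf1), -2.30 (Cbln1, Crh) and 0.10 (Car10, Crh). Without the 5% deepest cells the Sim1 heterozygous Otp contrast of Trh was 2.86.

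The 3 highest clusters held, in control and Sim1 heterozygous cells, 96.6% and 94.6% of Trh UMIs, 77.9% and 54% of Cbln1 and 89.3% and 75.9% of Car10 at resolution 0.5, which makes fewer clusters. With the 3 genes among the clustering genes the shares were 77.2% and 70.9% for Trh, 40.7% and 30.2% for Cbln1, and 48.3% for Car10 in control. Ratios of shares of cells stayed within their intervals at each thinning, but the count of cells with 2 members after thinning (as few as 3) limits what co-detection can show.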

Other observations

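When Trh, Cbln1 and Car10 were among the clustering genes, a cluster of 24 cells, 18 control and 6 Sim1 heterozygous, was led by Trh, Ghrh, Sncg and Onecut3, with Gng8, Trpc5, Onecut2, Onecut1, Asic4 and Cbln1 after them. Clustering without the 3 genes gave no cluster led by Ghrh or a Onecut gene.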
